A study of Mus musculus with 8 samples.

Results

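The genes examined here encode the junctions that hold epithelial cells together and the proteins that set their apical and basal sides. They are every claudin (symbols starting with Cldn, without the Cldnd genes) and a list of tight junction, adherens junction, desmosome and polarity genes, taken by symbol from the count table. The table listed 66 of them, of which 32 were claudins, and 51 had a count in any library out of 18975 such genes among the 24594 listed. These 51 were 17 claudins, 7 other tight junction genes, 9 adherens junction genes, 7 desmosome genes and 11 polarity genes. The 15 without any count were all claudins, among them Cldn9, Cldn13, Cldn15, Cldn17, Cldn20, Cldn22 and Cldn24, and the other 8 belonged to the Cldn34 group.

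RNA was taken from luminal progenitors (LP, the c-Kit high fraction) and from mature luminal cells (the c-Kit low fraction), which GEO's labels call luminal differentiated, and the comparison asked which genes differ between the progenitor and the differentiated state. The labels name EpCAM, CD49f, c-Kit and CD14 as the sorting markers, while the study's text names c-Kit for the split into these fractions. The cells came from the virgin mammary gland of wild type C57BL/6J mice that had received no treatment. There were 4 LP and 4 mature libraries, with 5510863 to 7089597 counts in LP and 4410049 to 7791593 in mature libraries. The labels do not say that replicates came from separate mice, so the p-values measure the spread between these libraries. RNA was amplified from picogram amounts before sequencing. In sorted bulk RNA, fewer cells of a type and less RNA per cell cannot be told apart.

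Tight junctions close the space between neighbouring epithelial cells near their apical side. Claudins form the junction strands and set what can pass between cells, since some seal and others make pores for ions or water, and each epithelium uses its own mixture. Adherens junctions join cells through E-cadherin and its catenins, desmosomes anchor keratin filaments through desmosomal cadherins, plakoglobin, plakophilins and desmoplakin, and the Par, Crumbs and Scribble complexes mark the apical and basolateral domains. In the mammary gland, tight junctions of the luminal layer are known to be leaky before lactation and to close as milk secretion begins.

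Levels are given as CPM, the usual unit of counts relative to library size, here with library sizes scaled by TMM factors. Fold changes are on the log2 scale as LP minus mature, so that a negative value means higher in mature cells. A gene was called when the quasi-likelihood p-value of edgeR, adjusted by the Benjamini-Hochberg method over all 12816 genes tested, was under 0.05. The sorted fractions carried the markers of their labels. All 4 mature markers (Pgr, Esr1, Prlr and Areg) were called higher in mature libraries, whereas LP had higher Kit, Cd14 and Elf5. Kit and Cd14 encode sorting markers, so they are no check apart from the sort. The groups overlapped in Esr1 (109 CPM in mature replicate 3, 117 CPM in LP replicate 1). They also overlapped in Areg (3.01 CPM in mature replicate 4, 3.16 CPM in LP replicate 2). The fourth LP marker, Aldh1a3, was not called (adjusted p = 0.0512). Mature replicates stood apart from each other, since the summed LP markers had 244, 355, 966 and 715 CPM in mature replicates 1 to 4 against 13574 to 20040 CPM in LP, and the summed markers of fibroblasts had 138, 179, 28.3 and 27 CPM against 7.35 to 41.7 CPM in LP. Within that fibroblast list the decorin gene Dcn supplied 132, 154, 14.1 and 20.6 CPM in the mature replicates, and the other 5 genes had at most 16.3 CPM in any library. Of these, Lum was higher in each mature library (2.67 to 5.52 CPM) than in any LP library (at most 2.61 CPM), Pdgfra reached 16.3 CPM in mature replicate 2, Col3a1 and Col1a2 had 0 to 5.48 CPM, and Col1a1 had no count in mature replicates 1, 2 and 4. The summed 9 basal markers reached 79.4 CPM at most, in mature replicate 3, the 6 immune markers 55.6 CPM, the 5 endothelial markers 8.63 CPM and the 4 adipocyte markers 7.51 CPM. Of the basal genes, Acta2 was higher in each mature library (2.89 to 16.6 CPM) than in any LP library (at most 2.82 CPM). Oxtr and Krt17 went the other way, with means of 7.4 and 20.5 CPM in LP and 0.794 and 13.7 CPM in mature libraries. The lowest adjusted p among the fibroblast and these other genes was 0.0675, for Dcn.

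Of the 51 genes, 44 passed the filter on low counts and were tested. Among these, 12 were called, which is 27.3% against 24.7% of all genes tested. In LP 2 of the 44 were higher, or 4.55% against 10.9% of all genes, and in mature cells 10 were higher, or 22.7% against 13.8%. The ranges of LP and mature values were apart in 12 of the 44, or 27.3% against 29.5% of all genes. The mature libraries were above in 10 of these 12. Over all genes tested, they were above in 1983 of the 3777 genes without overlap and the LP libraries in 1794. The median log2 fold change was -0.30 over the 44 genes and 0.00 over all genes tested, and 30 of the 44 had a negative value against 6408 of 12816 of all genes. The share called was thus close to that of all genes, and the called genes lay more often on the mature side. The 7 genes left untested, Cdh3 and the claudins Cldn5, Cldn11, Cldn14, Cldn16, Cldn18 and Cldn19, had 5 to 53 counts over all 8 libraries.

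**Figure D1:**
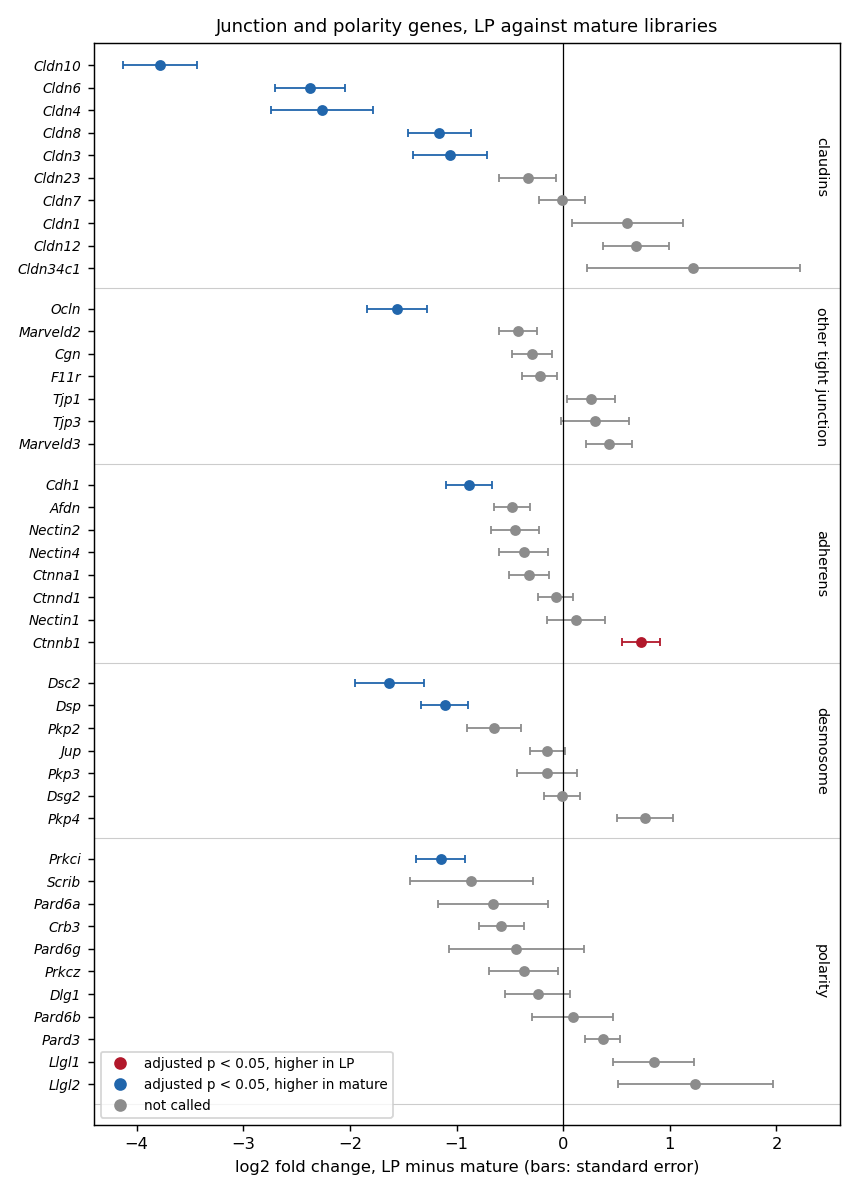
Log2 fold change (LP minus mature, x axis) of 43 of the 44 tested genes by role, with bars for the standard error. Cldn2 is not drawn because its mature libraries had no count. Points left of 0 are higher in mature libraries, where 10 of the 12 called genes lie, from Cldn10 at -3.78 to Cdh1 at -0.88.

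The claudins held 6 of the 12 called genes, and the 4 called members with the largest fold changes, Cldn2, Cldn10, Cldn6 and Cldn4, were all claudins. Their start regions are shown for the size of these fold changes. They are RefSeq promoter windows running from 250 bases before to 50 bases after each annotated start. Capitals mark matches on either strand to 4 motifs, AACCNGTT (the core bound by Grainyhead-like factors), CACCTG (the E-box bound by Snail and Zeb repressors), AGATAA (bound by GATA factors) and GGAATG (bound by TEAD factors). CAGGTG and CATTCC are the CACCTG and GGAATG matches on the other strand.
Cldn2 (GRCm38.p6, chrX:139800558-139800857, plus strand): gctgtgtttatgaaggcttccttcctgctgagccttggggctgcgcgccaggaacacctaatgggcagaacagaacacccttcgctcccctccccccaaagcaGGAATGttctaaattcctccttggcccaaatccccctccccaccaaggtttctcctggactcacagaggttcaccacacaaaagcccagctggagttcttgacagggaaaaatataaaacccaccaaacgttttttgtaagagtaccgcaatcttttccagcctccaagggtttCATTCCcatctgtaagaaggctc
Cldn10 (GRCm38.p6, chr14:118787621-118787920, plus strand): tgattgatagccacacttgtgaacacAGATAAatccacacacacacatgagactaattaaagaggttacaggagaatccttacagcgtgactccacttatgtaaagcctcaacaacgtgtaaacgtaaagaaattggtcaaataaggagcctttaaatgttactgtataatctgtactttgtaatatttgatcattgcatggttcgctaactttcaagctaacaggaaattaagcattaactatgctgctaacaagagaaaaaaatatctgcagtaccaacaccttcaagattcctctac
Cldn10 (GRCm38.p6, chr14:118854700-118854999, plus strand): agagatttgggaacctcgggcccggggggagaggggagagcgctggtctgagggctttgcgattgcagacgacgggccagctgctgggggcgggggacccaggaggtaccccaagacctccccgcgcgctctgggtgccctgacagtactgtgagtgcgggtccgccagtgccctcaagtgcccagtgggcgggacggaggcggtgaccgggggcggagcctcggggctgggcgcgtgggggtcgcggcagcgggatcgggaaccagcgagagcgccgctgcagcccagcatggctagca
Cldn6 (GRCm38.p6, chr17:23679115-23679414, plus strand): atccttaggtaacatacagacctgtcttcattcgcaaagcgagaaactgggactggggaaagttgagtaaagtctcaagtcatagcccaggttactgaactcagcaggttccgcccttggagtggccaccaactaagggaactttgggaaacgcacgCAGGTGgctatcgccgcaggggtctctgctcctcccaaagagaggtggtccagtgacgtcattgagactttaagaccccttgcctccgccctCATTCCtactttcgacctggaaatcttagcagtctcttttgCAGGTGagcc
Cldn4 (GRCm38.p6, chr5:134946885-134947184, minus strand): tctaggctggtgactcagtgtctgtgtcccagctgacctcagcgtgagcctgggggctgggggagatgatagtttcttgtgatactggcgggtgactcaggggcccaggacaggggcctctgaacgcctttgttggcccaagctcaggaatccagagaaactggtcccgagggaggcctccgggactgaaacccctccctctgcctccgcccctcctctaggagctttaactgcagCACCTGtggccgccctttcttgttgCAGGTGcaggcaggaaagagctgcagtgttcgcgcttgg

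The Cldn2 window held GGAATG at positions 104 and 278, counted from 1 at the 5′ end. The first Cldn10 window held AGATAA at position 27 and the second, which starts a shorter transcript inside the gene, held none of the 4 motifs. The counts are per gene and do not separate these transcripts. The Cldn6 window held CACCTG at positions 158 and 291 and GGAATG at 250, and the Cldn4 window held CACCTG at 237 and 262. RefSeq windows were at hand for 37 of the 51 genes, with 59 windows, and CACCTG was present in 23 of these (39%) against 20.2% of all 32851 windows of the same length. The other motifs were present in 2 of 59 for AACCNGTT (3.39% against 2.09% of all windows), 5 of 59 for AGATAA (8.47% against 11.2%) and 9 of 59 for GGAATG (15.3% against 14.7%). No matches of different motifs overlapped. In the 12 windows of 9 called genes, CACCTG was present in 6, GGAATG in 3, AGATAA in 1 and AACCNGTT in 0. Several windows belong to the same gene and share bases, and these matches describe letters in the windows only.

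Among the claudins, 11 of 17 were tested and 6 called (54.5% against 24.7% of all genes), with 5 higher in mature cells and 1 higher in LP. Cldn4 (chr5:134945123-134946934 of mm10), a claudin that tightens the junction, was the most abundant of all 51 genes in both fractions. It had 2955, 2160, 2834 and 3034 CPM in LP replicates 1 to 4 and 19164, 22274, 4493 and 6531 CPM in mature replicates 1 to 4. All mature libraries lay above all LP libraries, and mature replicates 1 and 2 were far above mature replicates 3 and 4. The log2 fold change of Cldn4 was -2.26 with a standard error of 0.475 (adjusted p = 0.0067), with means of 2746 ± 399 CPM in LP and 13116 ± 8910 CPM in mature libraries (SD, n = 4). With mature replicates 1 and 2 left out, a setting chosen after the values were seen, the log2 fold change of Cldn4 was -0.99 (adjusted p = 0.0138).

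Cldn3 (chr5:134986214-134987476), a sealing claudin whose gene lies 39279 bases from Cldn4, had 991, 951, 1340 and 1469 CPM in the LP libraries and 3451, 3642, 1355 and 1450 CPM in the mature libraries. Mature replicates 1 and 2 were again the high ones, and mature replicates 3 and 4 lay within the LP range, so the groups overlapped. It was called higher in mature cells by a narrow margin (log2 fold change -1.06, standard error 0.347, adjusted p = 0.0473). The call was lost with RLE factors (adjusted p = 0.0502), without the filter (0.0627), with the replicate number as a block (0.131), when any LP library or mature replicate 1 or 2 was left out (0.0668 to 0.13), and with both of these mature replicates left out (log2 fold change -0.23, adjusted p = 0.516). Cldn13, the neighbour of Cldn4 on the other side at 29592 bases, had no count.

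The keratins of luminal cells also stood highest in mature replicates 1 and 2, where Krt18 had 18212 and 25188 CPM against 13429 and 13410 CPM in mature replicates 3 and 4. The Dcn and LP marker values above split the mature libraries in the same way. Their part in the Cldn4 and Cldn3 values was not tested.

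Cldn10 (chr14:118787871-118874525), which forms ion pores whose selectivity depends on the isoform, differed most among the genes with counts in both groups. The LP libraries had 18.3, 12.1, 8.13 and 6.24 CPM and the mature libraries 153, 146, 107 and 210 CPM. No library of either group came near the other group, and the mean was 13.7-fold higher in mature cells (log2 fold change -3.78, standard error 0.348, adjusted p = 0.000197). Leaving out mature replicates 1 and 2 gave -3.81 (adjusted p = 0.00178).

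Cldn6 (chr17:23679348-23682446), a claudin best known from embryonic epithelia, was present at low level in LP and higher in mature cells. It had 6.68, 4.74, 7.47 and 4.16 CPM in LP and 27.7, 43.3, 24.7 and 23.7 CPM in mature libraries, without overlap. The log2 fold change was -2.37, with a standard error of 0.328 (adjusted p = 0.000872). Its neighbour Cldn9, 137 bases away, had no count.

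Cldn8 (chr16:88560826-88563183), a sealing claudin known from the distal nephron, had 32.1, 25.7, 56.1 and 28 CPM in LP and 69, 58.3, 72.9 and 116 CPM in mature libraries. The groups did not overlap, although LP replicate 3 came close to mature replicate 2. The resulting log2 fold change, -1.16, had a standard error of 0.295 (adjusted p = 0.0163). The call was lost without LP replicate 2 (adjusted p = 0.0517), LP replicate 4 (0.051) or mature replicate 4 (0.0513).

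Cldn2 (chrX:139800808-139811386), which forms pores for cations and water in leaky epithelia, was the only called claudin higher in LP. It had 48, 155, 18 and 23 counts in the LP libraries, or 6.97, 22.3, 2.99 and 3.19 CPM, and 0 counts in each of the 4 mature libraries. All LP libraries therefore lay above the mature libraries, and LP replicate 2 gave 155 of the 244 counts. Set against a floor of 3 counts over the mature group (0.123 CPM), the LP mean of Cldn2 was 72.3-fold higher, and 35.8-fold higher without LP replicate 2. These ratios leave out the spread between the LP libraries. The adjusted p of the edgeR test was 0.00382.

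**Figure D2:**
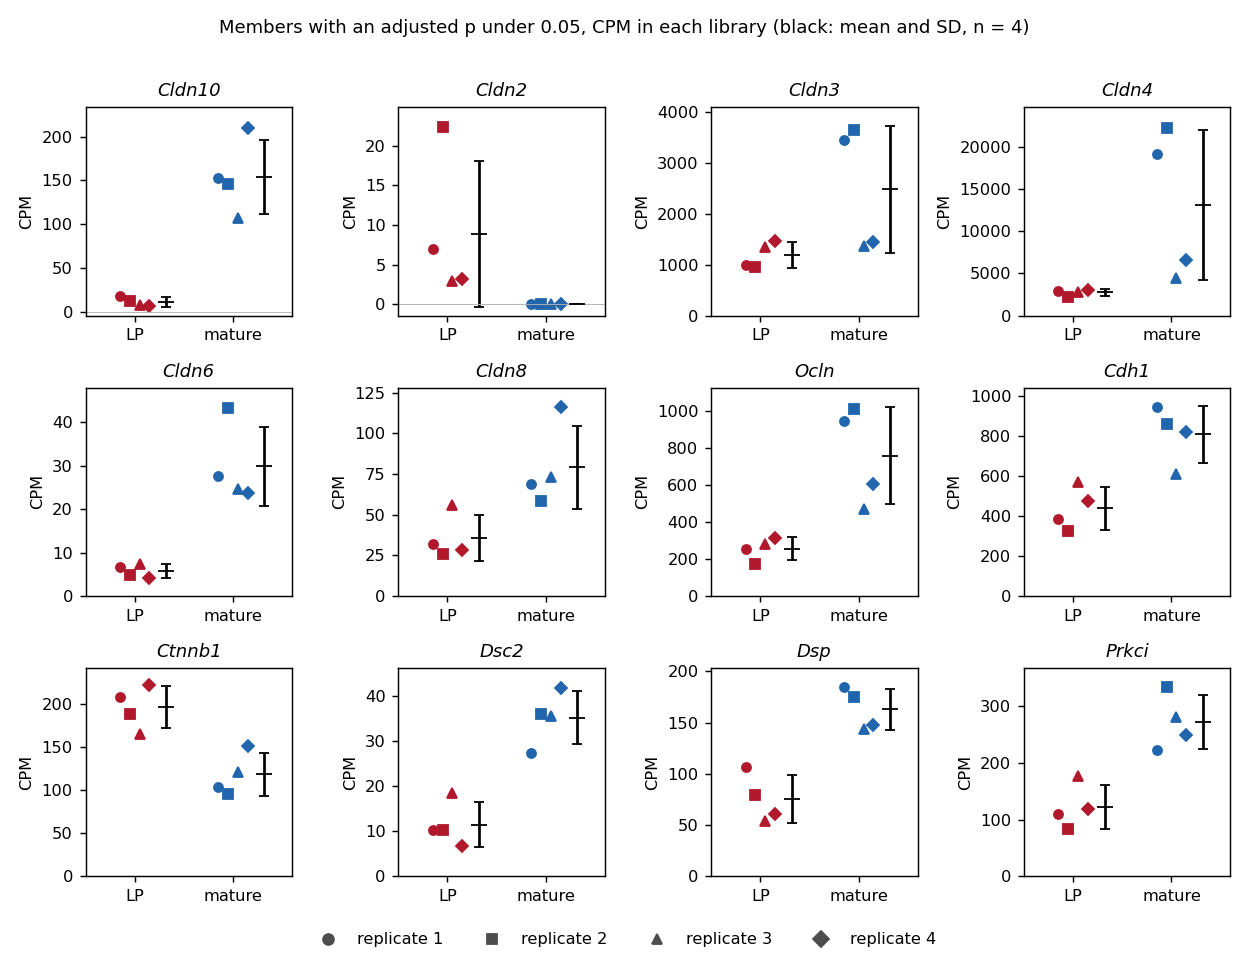
CPM (y axis, linear, from 0) of the 12 called genes in each library, LP in red and mature in blue, with black bars for mean and SD (n = 4). The groups overlap only in Cldn3, where mature replicates 3 and 4 (1355 and 1450 CPM) lie within the LP range.

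The claudins that were not called were led by Cldn7, Cldn1 and Cldn23. Cldn7, which lies along the lateral membrane as well as in the junction, had 166, 176, 265 and 244 CPM in LP and 247, 257, 161 and 195 CPM in mature libraries. The groups overlapped almost entirely (log2 fold change -0.01, standard error 0.212, adjusted p = 0.969). Its sign turned with the setting, from -0.13 to 0.1 with 1 library left out and to 0.27 without mature replicates 1 and 2. Cldn1, the claudin of the skin barrier, had 56.9, 50.3, 93.5 and 86.8 CPM in LP, and its mature libraries were spread between 9.84 CPM in replicate 1 and 87.5 CPM in replicate 3, with 64.1 and 28.3 CPM in replicates 2 and 4. The difference was smaller than this spread (log2 fold change 0.60, standard error 0.521, adjusted p = 0.436). Cldn23 had 36.2, 32.2, 32.5 and 34.7 CPM in LP and 52.6, 59.4, 25 and 34.1 CPM in mature libraries, so that mature replicates 1 and 2 were again above the LP range (log2 fold change -0.33, standard error 0.267, adjusted p = 0.402). Without these libraries its sign turned, to 0.21. Cldn12 and Cldn34c1 had values of 0.68 and 1.22 and were not called, and 13.6% of the 51-base windows of Cldn34c1 transcripts also occur in transcripts of other genes, among them its copies Cldn34c2 and Cldn34c3.

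Per kilobase of exon, the scale on which genes can be compared, the summed level of the 17 claudins was 2130 to 3075 CPM per kilobase in LP libraries and 13601, 15494, 3793 and 5058 in mature replicates 1 to 4. Cldn4 made up 62.6%, 55.8%, 54% and 54.3% of this sum in LP replicates 1 to 4 and 77.6%, 79.2%, 65.2% and 71.1% in mature replicates 1 to 4. Its share was higher in every mature library than in every LP library, including the libraries in which the total was close to LP. Cldn3 supplied 30.3% to 37.9% in LP and 18.7% to 28.4% in mature libraries, and Cldn7 4.31% to 6.21% against 1.12% to 2.88%. All other claudins together made up 1.03% to 3.51% in any library. The ratio of Cldn4 to Cldn3, in CPM, was 2.98, 2.27, 2.11 and 2.07 in LP and 5.55, 6.12, 3.32 and 4.5 in mature libraries. These shares and ratios do not depend on the scaling of the libraries, share the Cldn4 values tested above, and were not tested themselves.

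**Figure D3:**
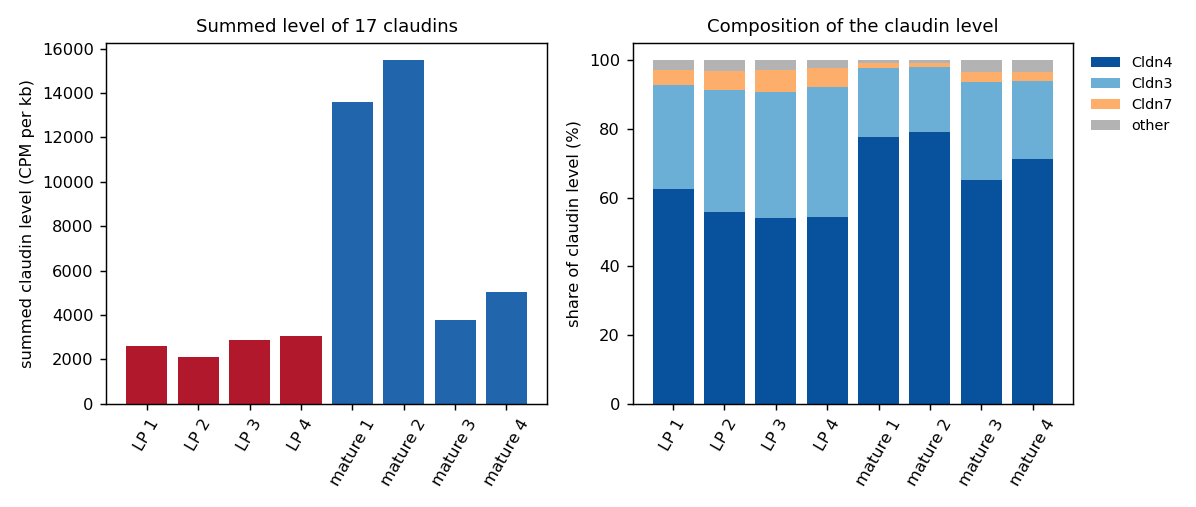
Left, the summed level of 17 claudins in CPM per kilobase of exon in each library. Right, the percentage of that sum from Cldn4, Cldn3, Cldn7 and the other claudins. Cldn4 lies between 54% and 62.6% in LP and between 65.2% and 79.2% in mature libraries.

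Among the 7 other tight junction genes, 1 was called (14.3% against 24.7% of all genes). Ocln (chr13:100496504-100552718) encodes occludin, a membrane protein of the MARVEL family that lies in the strands beside the claudins. Its level was 253, 173, 282 and 314 CPM in LP and 942, 1010, 468 and 603 CPM in mature libraries. All mature libraries were above all LP libraries, with mature replicates 1 and 2 highest as for Cldn4. For Ocln this gave -1.56 on the log2 scale with a standard error of 0.279 (adjusted p = 0.00297), and -1.06 (adjusted p = 0.0195) without those 2 libraries.

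Marveld2, which encodes tricellulin, the MARVEL protein of the corners where cells meet, lies 43238 bases from Ocln. It had 52.2 to 81.9 CPM in LP and 89.6 to 112 CPM in mature libraries (log2 fold change -0.42, adjusted p = 0.116). Marveld2 was named after its values were seen, as the only gene of the 44 without overlap that was not called. F11r, encoding the adhesion molecule JAM-A, had 404, 324, 393 and 374 CPM in LP and 533, 424, 359 and 431 CPM in mature libraries, which overlapped (log2 fold change -0.22, adjusted p = 0.359). The scaffold genes showed no called difference either. Cgn, encoding cingulin, which links the junction to actomyosin, had 120, 103, 147 and 131 CPM in LP and 156, 198, 132 and 126 CPM in mature libraries (log2 fold change -0.29, adjusted p = 0.29), and 17% of its 51-base windows are shared with other annotated genes. Tjp1, encoding the scaffold ZO-1, had 77.8, 92.6, 147 and 114 CPM in LP and 74.7, 114, 98.3 and 72.8 CPM in mature libraries, with the ranges overlapping (log2 fold change 0.26, adjusted p = 0.436). Marveld3 and Tjp3 had log2 fold changes of 0.43 and 0.30 and were not called.

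In the adherens junction group, 8 of 9 genes were tested and 2 called, in opposite directions. This was 25%, close to the 24.7% of all genes. Cdh1 (chr8:106603350-106670247), which encodes E-cadherin, had 384, 324, 569 and 472 CPM in LP and 943, 859, 608 and 817 CPM in mature libraries. The groups did not overlap, and the nearest libraries were LP replicate 3 and mature replicate 3. This was a log2 fold change of -0.88 with a standard error of 0.216 (adjusted p = 0.0135).

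Ctnnb1 (chr9:120933400-120960507), which encodes beta-catenin, the partner of the cadherin tail that also carries Wnt signals, was higher in LP. The LP libraries had 209, 189, 166 and 222 CPM and the mature libraries 104, 96.4, 122 and 152 CPM. The ranges did not meet, with LP replicate 3 and mature replicate 4 nearest each other, and the log2 fold change reached 0.73 with a standard error of 0.18 (adjusted p = 0.014). Of its 51-base windows, 12.2% also occur in transcripts of Ulk4, a gene on the opposite strand whose annotated span overlaps Ctnnb1. Without mature replicates 1 and 2, both calls were lost, at -0.69 for Cdh1 and 0.53 for Ctnnb1 (adjusted p = 0.0885 each). The ratio of Cdh1 to Ctnnb1, in CPM per kilobase, was 1.5, 1.4, 2.81 and 1.74 in LP and 7.38, 7.28, 4.08 and 4.39 in mature libraries. This ratio was higher in each mature library than in any LP library, which follows from the Cdh1 and Ctnnb1 values given above. It was not tested separately.

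The remaining catenins and nectins did not pass the test. Ctnna1, encoding alpha-catenin, which connects the complex to actin, had 662, 555, 544 and 557 CPM in LP and 847, 864, 625 and 551 CPM in mature libraries (log2 fold change -0.32, standard error 0.189, adjusted p = 0.25). Mature replicates 3 and 4 lay within the LP values. Ctnnd1, encoding p120-catenin, which keeps cadherins at the membrane, had 319, 286, 207 and 239 CPM in LP and 256, 272, 279 and 294 CPM in mature libraries (log2 fold change -0.07, standard error 0.166, adjusted p = 0.804). Here the mature values lay inside the LP range. Nectin2, an adhesion molecule of the immunoglobulin family, had 127, 105, 209 and 195 CPM in LP and 219, 191, 243 and 215 CPM in mature libraries (log2 fold change -0.45, standard error 0.224, adjusted p = 0.171). Only mature replicate 2 lay within the LP range. Afdn, Nectin1 and Nectin4 lay between -0.48 and 0.12 with adjusted p-values of 0.0658 to 0.783. Cdh3, which encodes P-cadherin of the basal layer, had 53 counts over the 8 libraries, with 23 of them in mature replicate 3 and 12 in mature replicate 2, against 31352 for Cdh1, whose gene lies 46438 bases away.

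All 7 desmosome genes were tested and 2 were called (28.6% against 24.7% of all genes), both higher in mature cells. Dsp (chr13:38151294-38198577), encoding desmoplakin, the linker to keratin filaments, had 107, 79.9, 54.1 and 61 CPM in LP and 185, 175, 144 and 148 CPM in mature libraries. There was no overlap (log2 fold change -1.11, standard error 0.219, adjusted p = 0.00499). Dsc2 (chr18:20030633-20059554), encoding a desmosomal cadherin, had 10.3, 10.2, 18.4 and 6.66 CPM in LP and 27.3, 36, 35.5 and 41.7 CPM in mature libraries. The highest LP library, replicate 3, stayed below every mature library (log2 fold change -1.63, standard error 0.322, adjusted p = 0.00502). The luminal keratin genes Krt8, Krt18 and Krt19 were also called higher in mature cells. A link between them and the desmosome genes was not tested.

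Dsg2, the other desmosomal cadherin gene of the list, did not follow Dsc2. It had 123, 119, 167 and 153 CPM in LP and 120, 145, 133 and 169 CPM in mature libraries, which overlapped (log2 fold change -0.01, standard error 0.172, adjusted p = 0.965). Its sign turned in several settings, between -0.1 and 0.11 with 1 library left out. Jup, encoding plakoglobin, a catenin of both desmosomes and adherens junctions, had 180, 152, 194 and 217 CPM in LP and 232, 169, 203 and 221 CPM in mature libraries (log2 fold change -0.15, standard error 0.165, adjusted p = 0.538), and these ranges overlapped widely. Pkp4, a p120-related armadillo protein found at several junctions, was the only desmosome gene with a positive value. It had 71.6, 111, 138 and 147 CPM in LP and 54.8, 48.6, 80.3 and 89.5 CPM in mature libraries, and LP replicate 1 lay below mature replicates 3 and 4 (log2 fold change 0.77, standard error 0.264, adjusted p = 0.0559). DESeq2 (adjusted p = 0.0271), the replicate number as a block (0.0183), a filter of at least 10 counts in every library (0.0388) and leaving out LP replicate 1 (0.0257) or mature replicate 4 (0.0397) each called it. Pkp2 and Pkp3 had -0.65 and -0.15 and were not called.

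Of the 11 polarity genes, all tested, 1 was called (9.09% against 24.7% of all genes). Prkci (chr3:30995742-31052740) encodes the atypical protein kinase C iota of the Par complex, which keeps basolateral proteins off the apical side. Its level was 110, 84.4, 177 and 119 CPM in LP and 223, 334, 281 and 250 CPM in mature libraries. The groups did not overlap (log2 fold change -1.15, standard error 0.232, adjusted p = 0.00545).

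Its partners in the complex showed no called difference. Pard3, encoding the scaffold Par3, had 101, 98.3, 102 and 75.9 CPM in LP and 75.1, 73.3, 81.7 and 61.6 CPM in mature libraries, and LP replicate 4 alone lay in the mature range (log2 fold change 0.37, standard error 0.161, adjusted p = 0.121). Prkcz, the other atypical kinase gene, was lower in level than Prkci, with group means of 2.79 and 3.6 CPM per kilobase in LP and mature libraries against 26.1 and 57.8 for Prkci (log2 fold change of Prkcz -0.37, adjusted p = 0.44), and 14.7% of its 51-base windows occur in other annotated genes. The Par6 genes Pard6a, Pard6b and Pard6g had log2 fold changes of -0.66, 0.09 and -0.44. Crb3, the Crumbs gene of most epithelia, had 53.4, 55.9, 43 and 55.2 CPM in LP and 93.7, 91.7, 51.7 and 73.5 CPM in mature libraries. Mature replicate 3 alone overlapped with LP (log2 fold change -0.58, standard error 0.209, adjusted p = 0.0676), and without it Crb3 was called (-0.70, adjusted p = 0.0149). Dlg1, a basolateral scaffold of the Scribble group, had 40.4, 35.8, 53.8 and 40.8 CPM in LP and 26.3, 39.4, 56.6 and 79.3 CPM in mature libraries (log2 fold change -0.24, standard error 0.308, adjusted p = 0.61). The mature libraries spread on both sides of LP, and without mature replicate 4 the sign turned, to 0.09. The basolateral genes Scrib, Llgl1 and Llgl2 were low, with at most 3.69 CPM per kilobase in either group mean, and were not called (-0.86, 0.85 and 1.24).

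By group mean per kilobase, Cldn4 (1512 CPM per kilobase in LP and 7222 in mature libraries) and Cldn3 (943 and 1966) ranked 1 and 2 in both fractions, followed by Ctnna1 (155 and 193). Below these, some genes kept their rank, such as Jup at 8 and Crb3 at 12 in both fractions, and others changed places. Cdh1 ranked 6 in LP and 4 in mature libraries, Ocln 7 and 5, Ctnnb1 9 and 15, and Cldn10 35 and 10 (4.32 and 59.5 CPM per kilobase). In LP, Ctnna1, F11r (148) and Cldn7 (144) were neighbours in this order.

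A wider list of junction, polarity and regulator genes gave the surroundings of these results. Of 49 tested genes, 9 were called, or 18.4% against 24.7% of all genes, 4 of them toward LP and 5 toward mature cells, and the median log2 fold change was -0.12. Desmosome and cornified envelope genes made up 3 of the 9, out of 4 tested (75% against 24.7% of all genes). Perp, a desmosome-associated target of p53 and p63, had 91, 68.7, 84.5 and 108 CPM in LP and 236, 217, 190 and 212 CPM in mature libraries, without overlap (log2 fold change -1.28, adjusted p = 0.000742). Evpl, encoding envoplakin, had -1.43 (adjusted p = 0.00928). Pkp1, a plakophilin of stratified epithelia, went the other way with 51.5, 42.3, 49.3 and 37.6 CPM in LP and 16.9, 2.36, 26.7 and 6.78 CPM in mature libraries (log2 fold change 1.75, adjusted p = 0.0355). No LP library lay below a mature library.

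Among the remaining called genes of this list, Ctnnal1, which encodes the alpha-catenin-like protein alpha-catulin, had 4.07, 4.46, 10.5 and 0.971 CPM in LP and 44.7, 48.3, 38.3 and 31.5 CPM in mature libraries (log2 fold change -3.04, adjusted p = 0.00276). Lin7c, a scaffold of the Crumbs complex, was higher in mature cells (-0.92, adjusted p = 0.00442). Erbin, a basolateral scaffold that binds ERBB2, was higher in LP (0.71, adjusted p = 0.024), as was Cgnl1, encoding paracingulin (1.26, adjusted p = 0.0244). The groups overlapped in Cgnl1, with 47.3 CPM in LP replicate 4 and 64.4 CPM in mature replicate 3. Of the transcription factors that control epithelial junction genes, Grhl2 had 61, 79.6, 71.6 and 62.2 CPM in LP and 38, 20.8, 35.9 and 32.8 CPM in mature libraries (log2 fold change 1.10, adjusted p = 0.00465). It was thus higher in LP, whereas Ovol1 had 29.8, 26.6, 37.4 and 14.3 CPM in LP and 226, 270, 94.3 and 77.9 CPM in mature libraries (log2 fold change -2.63, adjusted p = 0.00213). Both were without overlap, and for Ovol1 mature replicates 1 and 2 were again the highest. Grhl3 lay opposite to Grhl2, with 0.288 to 8.13 CPM in LP and 10.4 to 19.6 CPM in mature libraries. It was not called (log2 fold change -2.10, adjusted p = 0.0527). Grhl1 (0.30, adjusted p = 0.235) and Ovol2 (0.30, adjusted p = 0.701) were not called either. The repressors Snai1, Snai2, Zeb1 and Zeb2 had 18 to 94 counts in all and were not tested. Epcam, a partner of Cldn7 used for sorting, was not called (0.26, adjusted p = 0.332). Gja1, encoding the gap junction protein connexin Cx43, had 181 to 1016 CPM in LP and 382 to 2779 CPM in mature libraries, which overlapped (adjusted p = 0.0989), and the 3 other gap junction genes tested had larger adjusted p-values.

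**Figure D4:**
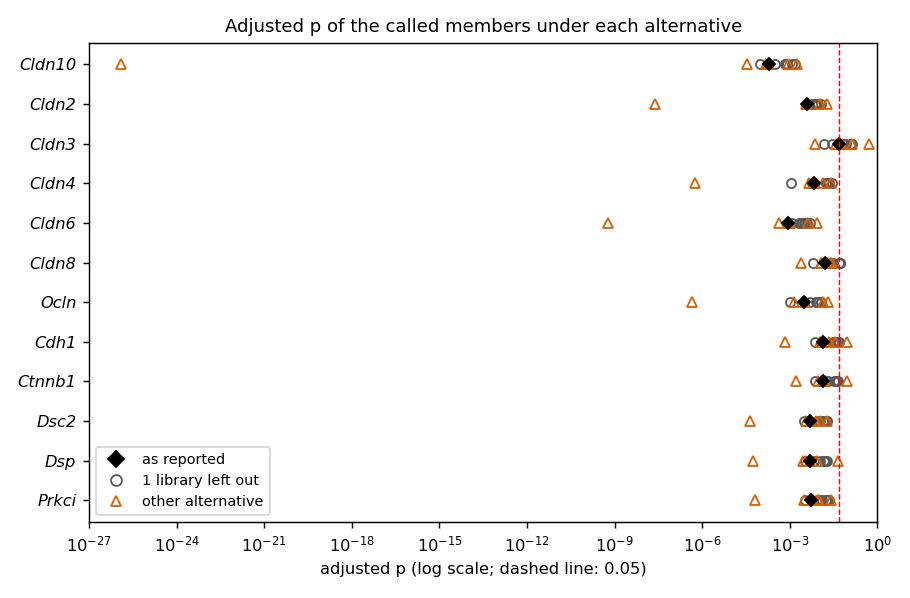
Adjusted p (x axis, log scale) of the 12 called genes as reported (black), with 1 library left out (grey circles) and under the other alternatives (orange triangles, DESeq2 giving the smallest). The dashed line is 0.05. Cldn3 crosses it most often and was called in 4 of 14 alternatives, while the largest value of Cldn10 was 0.00178.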

How the data were processed

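The authors used cutadapt to trim single-end reads of 51 bases and aligned them to mm10 with bowtie2, which does not split reads across introns, and deposited raw counts per gene by Entrez Gene ID. The submitters' processing notes name cutadapt 4.2 and Bowtie2 2.3.5.1. The counting program, its annotation and its use of strand are not given in the sources used here, so overlapping and near-identical genes cannot be separated. Of 24594 IDs, 24570 matched a RefSeq symbol (GRCm38.p6), which also gave gene positions and promoter windows. Exon lengths and shared 51-base windows came from GENCODE vM21.

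Counts were fitted with edgeR 4.0.16 in R 4.3.3 (TMM, filterByExpr by group, glmQLFTest, no block, all 8 libraries). CPM are counts divided by the TMM-scaled library size, with no added count. The standard error is the absolute log2 fold change divided by the square root of F. Alternatives were RLE factors, DESeq2 1.42.0, a replicate block, no filter or a minimum of 10 counts in each library, each library left out, and mature replicates 1 and 2 left out, the last added after the values were seen. The procedure was tested on simulated data.

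Per-library values were given for the called genes, and for the 3 uncalled genes of each role with the highest mean CPM, and called genes of the wider list were named. The genes and lists were chosen with earlier results of these data known. No pair of libraries of a group agreed within counting noise.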

Additional observations from a re-analysis of the deposited data

Results flagged for a closer look

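The 44 tested genes were examined in both groups for a library far from the other 3, by Dixon's ratio of the gap to the whole range at its 95% critical value, and 3 of 87 groups of libraries exceeded it, where about 4.35 would by chance at 1 in 20. Ctnna1 had 662 CPM in LP replicate 1 against 544 to 557 CPM in the other LP libraries, a gap of 0.892 of the range. Pard3 had 75.9 CPM in LP replicate 4 against 98.3 to 102 CPM, a gap of 0.873. Prkcz had 27.6 CPM in mature replicate 4 against 13.1 to 14.6 CPM, a gap of 0.9. Their adjusted p-values between LP and mature cells were 0.25, 0.121 and 0.44. The high Cldn4, Cldn3 and Ocln values of mature replicates 1 and 2 did not meet this limit, since no single library stood alone.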

How the results depend on the processing

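With 1 library left out, between 10 and 13 of the 44 genes were called, against 17.8% to 26.2% of all genes. With RLE factors, DESeq2 or the replicate block it was 11 to 13 of the 44, against 23.6% to 29.6%. Without the filter 11 of 51 were called, against 15.4% of all genes. A minimum of 10 counts in each library gave 12 of 40, against 29.2%. Leaving out mature replicates 1 and 2 gave 9, all among the 12, without Cdh1, Cldn3 and Ctnnb1, and 1 rather than 2 higher in LP. With fewer mature libraries the test also called fewer genes of the whole table, 2179 against 3161.

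The replicate numbers of the labels join each LP library to a mature library. The sample descriptions join the same libraries through a shared leading number, and the labels do not say whether it marks a mouse or a sort. Deviations from the group means correlated by 0.113, 0.0618, 0.148 and 0.0844 between same-numbered libraries and by -0.156 to 0.0779 between the others. Each LP library correlated most with the mature library of its own number, whereas mature replicate 2 was closer to LP replicate 1 (0.0779). With the replicate block 12 genes were called, 11 of them shared, with Cldn3 lost (-0.93, adjusted p = 0.131) and Pkp4 gained (0.76, adjusted p = 0.0183), 14 genes of the wider list were called rather than 9, and 3027 rather than 3161 genes in all. The cause was not tested.

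Among the 27 genes given with per-library values by the naming rule, the sign of the log2 fold change turned in 5, which were not called. These were Cldn7 (0.00 with DESeq2, 0.05 without the filter, 0.00 with at least 10 counts, -0.13 to 0.1 with 1 library left out, 0.27 without mature replicates 1 and 2), Dsg2 (0.05, 0.00 and -0.1 to 0.11 in the same order, without DESeq2), Ctnnd1 (-0.17 to 0.04 with 1 library left out), Dlg1 (-0.44 to 0.09) and Cldn23 (0.21 without mature replicates 1 and 2). Cldn10, Cldn6, Cldn4, Ocln, Dsp, Dsc2 and Prkci were called in all 14 alternatives, and Cldn2 in the 13 that tested it, since a filter of at least 10 counts in every library removes it. Without the filter the 7 untested genes were tested too, and none of them was called. With only 5 to 53 counts over all 8 libraries, differences in these genes could not be judged.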
